A study of Mus musculus with 9 samples.

Results

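The genes described here are 10 that act in osteoblasts, osteocytes and the mineralisation of bone matrix, namely Runx2, Sp7, Alpl, Spp1, Bglap, Dmp1, Phex, Omd, Tnfsf11 and Tnfrsf11b. They were taken as every array probe that carries 1 of these gene names, which gave 13 of the 39429 probes on the array. Of these, 11 probes of 9 genes reached the well-above-background mark on each of the 3 arrays of some group and were tested, among 21992 genes in all, and the single Alpl probe and a further Bglap probe were not. The cells were C2C12, a mouse myoblast line that fuses into myotubes when growth serum is withdrawn, grown for 72 h with vehicle, with 1 nM calcitriol or with 10 nM calcitriol, with 3 samples in each group and no other agent named. Calcitriol, the active vitamin D hormone, binds the vitamin D receptor. All samples come from 1 line, the series speaks of myotubes, and the sources used here do not say how far fusion had gone when calcitriol was added.

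Bone matrix is laid down by osteoblasts, which arise from mesenchymal cells under the transcription factors Runx2 and Sp7, and is maintained by osteocytes, the cells buried within it. These cells make alkaline phosphatase, osteocalcin, osteopontin and dentin matrix protein, which govern where calcium phosphate crystals form, and they set osteoclast numbers through RANK ligand and its decoy receptor osteoprotegerin. Calcitriol is known to act on bone cells through several of these genes, Spp1 and Tnfsf11 among them. C2C12 cells are a common test system because bone morphogenetic proteins are known to turn them from muscle towards an osteoblast phenotype.

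Values are log2 of the array's processed signal minus that array's 75th percentile of it, so 0 is the level below which 75% of spots lie, and levels of different probes are not compared with each other. The 75th percentile ran from 2826 to 3389 intensity units, no spot was saturated, and the small number of arrays limits how precise any value is. One array, that of vehicle replicate 3, differed from the rest. It had 96.4% of spots well above background against 67.1% to 79.2% on the other 8 arrays, a median signal of 660 against 216 to 315, and 6007 of 43020 spots with a non-uniform mark against 8 to 56. Its extra signal lay in dim probes. The 12 myotube markers listed here were well above background on all 9 arrays.

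Most of the 9 tested genes differed from vehicle, in both directions. Dmp1, Omd and Tnfrsf11b were lower at both doses and Spp1 was higher at both, Runx2 was lower at both by the probe of a non-coding transcript and at 10 nM alone by a coding probe, while Phex was higher at 1 nM and, on this scale, lower at 10 nM. At 1 nM, 6 of the 9 passed the test (limma, adjusted p under 0.05 over all genes), 2 higher and 4 lower, where 23.6% of all genes passed, 11.8% higher and 11.8% lower. At 10 nM, 6 passed, 1 higher and 5 lower, where 30.1% of all genes passed, 15.4% higher and 14.7% lower. Between the doses, 2 of the 9 passed, both lower at 10 nM, where 3.81% of all genes passed, 1.6% higher and 2.21% lower (837 genes, or 459 with the replicate number as a block). Without vehicle replicate 3 the counts were 8, 7 and 4 of 9 (at 1 nM with Tnfsf11, which was then at background in both groups), where 25.3%, 32.5% and 5.76% of all genes passed, higher in 13.3%, 17.2% and 2.67% and lower in 12%, 15.3% and 3.09%. Of the genes called, 49.9%, 51.2% and 41.9% were higher, against 63.2%, 64.2% and 51.6% under quantile normalization and 61.3%, 66.9% and 76.7% under array median scaling. The 9 genes had a median log2 difference of -0.19 for 1 nM, -0.59 for 10 nM and -0.56 for 10 nM against 1 nM, beside -0.09, -0.11 and -0.01 over all genes tested. The groups did not overlap for 7, 6 and 8 of the 9 genes in these comparisons, where 42.4%, 43.8% and 24% of all genes had groups that did not overlap. Dmp1 was kept for testing through vehicle alone and Tnfsf11 through 10 nM alone, a filter that favours a call of higher in that group. In RNA from a whole culture, fewer cells of a kind and less RNA per cell cannot be told apart.

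**Figure D1:**
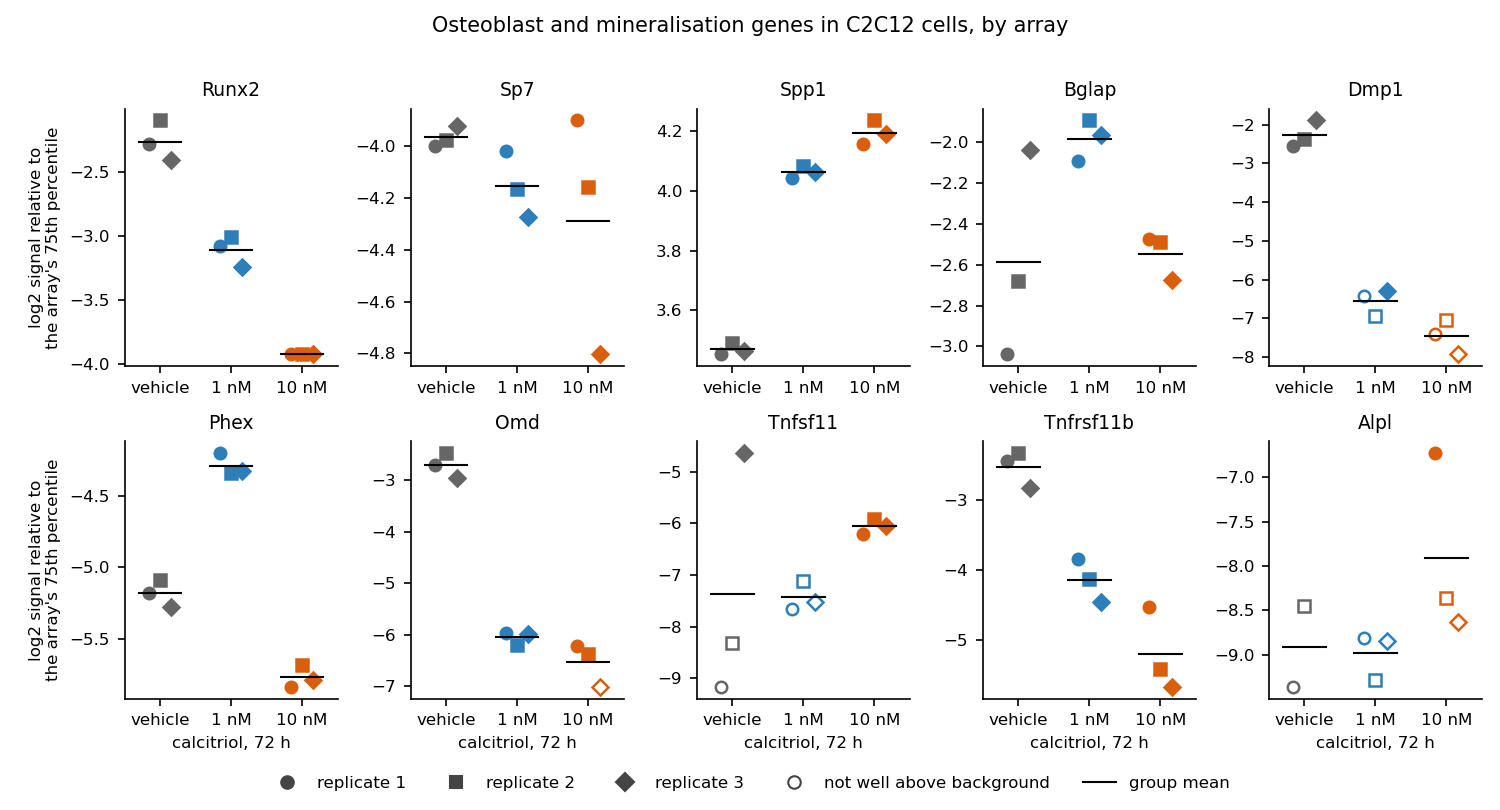
Each panel plots 1 gene, with the log2 signal relative to the array's 75th percentile on the y axis (each panel with its own range) and vehicle, 1 nM and 10 nM calcitriol on the x axis. Points are arrays, marked by replicate number, open where the probe was not well above background, and bars are group means. Dmp1, Omd and Tnfrsf11b lie lower at both doses than in vehicle, Spp1 lies higher, Phex is highest at 1 nM, and vehicle replicate 3 lies apart for Tnfsf11.

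Runx2 encodes the transcription factor that commits cells to the osteoblast lineage, and its 3 probes differed in their calls. The probe that stands for it, the one with the highest mean, read -2.28, -2.10 and -2.40 in vehicle, -3.08, -3.0 and -3.24 at 1 nM and -3.93, -3.92 and -3.92 at 10 nM. The groups did not overlap, and the 10 nM arrays lay within an SD of 0.003. Runx2 was 1.80-fold lower at 1 nM than in vehicle (log2 -0.85, SE 0.10, limma adjusted p = 0.000603) and 3.16-fold lower at 10 nM than in vehicle (log2 -1.66, SE 0.10, adjusted p = 1.07e-05). It was also 1.76-fold lower at 10 nM than at 1 nM (log2 -0.82, adjusted p = 0.00508). With vehicle replicate 3 kept, the 1 nM call ended under normexp background correction (log2 -0.50, adjusted p = 0.0858), quantile normalization (-0.23, 0.739), array median scaling (-0.27, 0.661) and in the submitters' table (-0.20, 0.646), and the 10 nM call under the last 3 of these (-0.97, -1.05 and -0.76, adjusted p = 0.169, 0.126 and 0.0917). The call between the doses ended under all 4 of these (-0.65, -0.75, -0.78 and -0.56, adjusted p = 0.156, 1.00, 1.00 and 0.716). With the mean of the 3 probes the 1 nM call ended too (-1.16, adjusted p = 0.0689). Without that array all 3 calls held under array median scaling (-0.81 at 1 nM and -1.59 at 10 nM, adjusted p = 0.00842 and 7.63e-05, and -0.78 between the doses, adjusted p = 0.0261).

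The 3 Runx2 probes read different parts of its transcripts, and their sequences are shown because their signals differ. The one used above, at chr17:44633034-44633093 on the minus strand of the mm9 build, is listed by the files under a non-coding transcript of Runx2 and is not printed. Of the other two, the first spans a start codon, printed in capitals, that opens the isoform known to be made from the distal promoter, and lies at chr17:44951128-44951187 on the minus strand (mm9). The second is listed under coding transcripts only and lies at chr17:44744925-44744984 on the minus strand (mm9).
Runx2 start codon probe: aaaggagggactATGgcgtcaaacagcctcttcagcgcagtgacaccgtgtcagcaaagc
Runx2 shared coding probe: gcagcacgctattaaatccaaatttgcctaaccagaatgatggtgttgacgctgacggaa

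The start codon probe read -5.25, -5.54 and -2.01 in vehicle, -6.24, -6.16 and -6.23 at 1 nM and -6.28, -7.01 and -6.98 at 10 nM. Every array of vehicle and 1 nM had it well above background, as did 1 of 3 arrays at 10 nM. Vehicle replicate 3 lay 3.38 above the mean of the other vehicle arrays, where probes of like level lay a median of 1.5 above it. With that array the difference did not pass the test at either dose (log2 -1.95 at 1 nM, adjusted p = 0.155, and -2.49 at 10 nM, adjusted p = 0.0635, over all kept probes). Without it the probe was 1.76-fold lower at 1 nM than in vehicle (log2 -0.82, SE 0.23, adjusted p = 0.0397) and 2.57-fold lower at 10 nM than in vehicle (log2 -1.36, SE 0.23, adjusted p = 0.00387).

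The shared coding probe read -3.91, -3.98 and -2.59 in vehicle, -4.41, -4.20 and -3.95 at 1 nM and -4.92, -4.33 and -4.84 at 10 nM, and all 9 arrays had it well above background. The 1 nM arrays reached into the range of vehicle, and the 10 nM arrays lay below it. Its log2 difference was -0.69 at 1 nM (adjusted p = 0.242) and -1.20 at 10 nM (adjusted p = 0.0473), or -0.24 (adjusted p = 0.442) and -0.75 (adjusted p = 0.0298) without vehicle replicate 3. At 10 nM, then, each of the 3 probes passed the test without that array, and at 1 nM the coding probe did not.

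**Figure D2:**
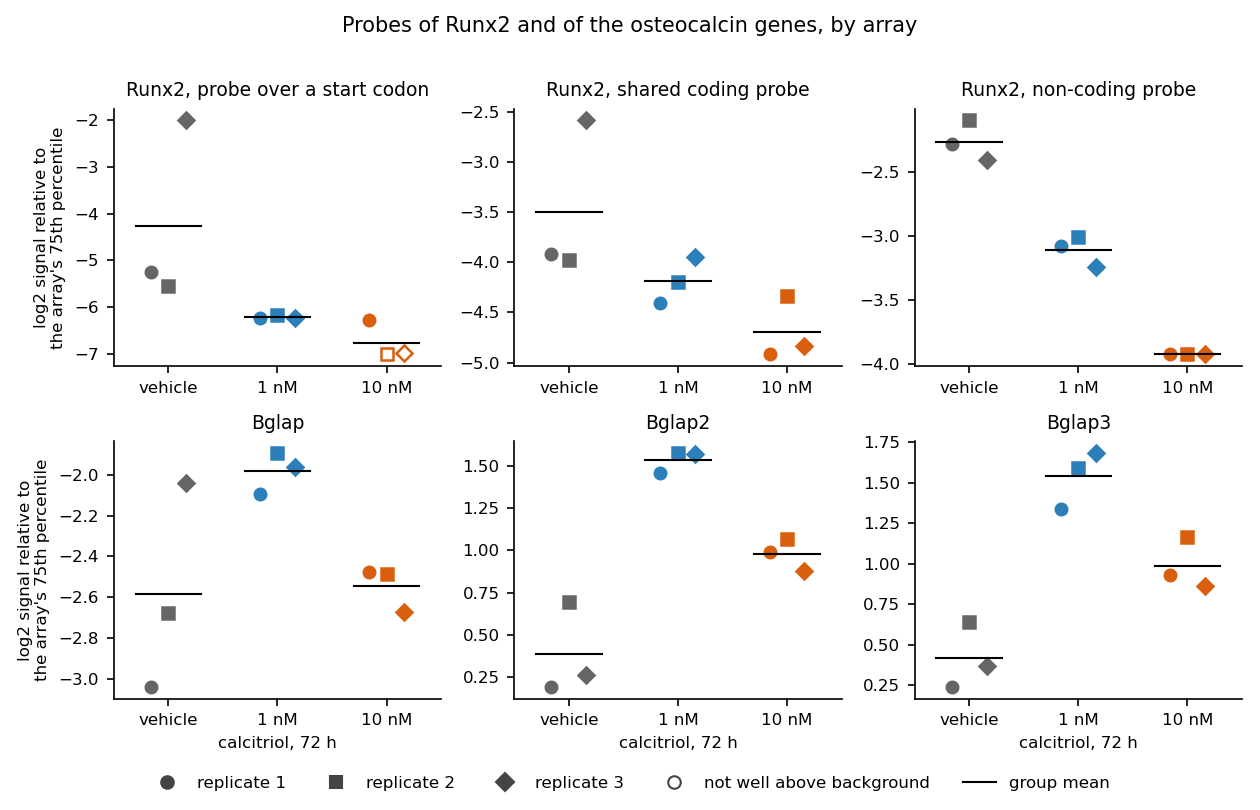
The top row plots the 3 Runx2 probes and the bottom row the probes of Bglap, Bglap2 and Bglap3, with the log2 signal relative to the array's 75th percentile on the y axis and vehicle, 1 nM and 10 nM calcitriol on the x axis. Points are arrays, open where not well above background, and bars are group means. Vehicle replicate 3 lies above the other vehicle arrays for 2 Runx2 probes and for Bglap, and not for Bglap2 or Bglap3.

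Sp7, which encodes osterix, the zinc finger factor that acts downstream of Runx2, read -4.0, -3.97 and -3.92 in vehicle, -4.02, -4.16 and -4.27 at 1 nM and -3.90, -4.16 and -4.80 at 10 nM. The 1 nM arrays lay just below vehicle, the 10 nM arrays spread around it, and the probe was well above background on all 9 arrays. Neither difference passed the test (log2 -0.19 with a 95% interval of -0.68 to 0.30 at 1 nM, adjusted p = 0.556, and -0.32 with an interval of -0.82 to 0.17 at 10 nM, adjusted p = 0.281), and the sign turned under quantile normalization, array median scaling and in the submitters' table. Without vehicle replicate 3 the differences were -0.17 and -0.30 (adjusted p = 0.670 and 0.393).

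Spp1 encodes osteopontin, a phosphorylated matrix protein that binds bone mineral and integrins, and it was higher at both doses with little spread. It read 3.45, 3.49 and 3.46 in vehicle, 4.04, 4.08 and 4.06 at 1 nM and 4.16, 4.24 and 4.19 at 10 nM. The groups did not overlap in any comparison, and no SD within a group was above 0.040. The 1 nM level of Spp1 was 1.51-fold that of vehicle (log2 0.59, SE 0.06, limma adjusted p = 0.000194). The 10 nM level was 1.65-fold that of vehicle (log2 0.72, SE 0.06, adjusted p = 4.61e-05). The difference of 0.13 between 10 nM and 1 nM, with a 95% interval of 0.00 to 0.26, did not pass the test (adjusted p = 0.404). The probe lies at chr5:104868502-104868561 on the plus strand (mm9). Within slide 1, where vehicle replicates 1 and 2 lay with replicate 1 of either dose, the differences were close to these but the calls ended (log2 0.57 and 0.68, adjusted p = 0.151 and 0.0727), as the 1 nM call did with array median scaling (1.17, adjusted p = 0.106).

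Dmp1 encodes dentin matrix protein, an acidic phosphoprotein of osteocytes and odontoblasts that is needed for mineralisation, and it showed the widest difference of the 9 genes. It read -2.54, -2.36 and -1.90 in vehicle, -6.43, -6.95 and -6.30 at 1 nM and -7.40, -7.03 and -7.93 at 10 nM. The vehicle arrays lay far above all others. The probe was well above background on all 3 vehicle arrays, on 1 of 3 at 1 nM and on none at 10 nM. It was thus kept for testing through vehicle alone, a filter that favours a call of lower at the doses. The fitted difference at 1 nM, where 2 of the 3 arrays were at background, was -4.29 on the log2 scale (SE 0.28, adjusted p = 3.03e-05). At 10 nM it was at least 22.4-fold lower than in vehicle (fitted log2 -5.19, adjusted p = 7.15e-06). That bound sets the vehicle mean of -2.27 against the mean, over the 10 nM arrays, of the higher of the probe's own signal and the lowest signal of any probe well above background, -6.75. The doses could not be told apart by the test (log2 -0.90, adjusted p = 0.193). The differences were -4.11 and -5.00 without vehicle replicate 3 (adjusted p = 9.15e-05 and 2.37e-05), and the call held under all 24 alternatives at each dose. Their fitted differences ran from -4.73 to -2.23 at 1 nM and from -5.40 to -2.40 at 10 nM, with the smallest sizes in the submitters' table and the next under normexp (-2.53 and -2.71). The probe lies at chr5:104642918-104642977 on the plus strand (mm9).

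Phex encodes an endopeptidase of osteoblasts and osteocytes whose loss in humans leads to X-linked hypophosphataemia, and on this scale its differences passed the test in opposite directions at the 2 doses. It read -5.18, -5.09 and -5.28 in vehicle, -4.20, -4.34 and -4.33 at 1 nM and -5.84, -5.69 and -5.79 at 10 nM. All 3 groups were apart from each other, with an SD of at most 0.094, and the probe was well above background on all 9 arrays. Phex was 1.86-fold higher at 1 nM than in vehicle (log2 0.90, SE 0.08, adjusted p = 0.000150) and 2.80-fold lower at 10 nM than at 1 nM (log2 -1.48, SE 0.08, adjusted p = 0.000232). It was 1.5-fold lower at 10 nM than in vehicle (log2 -0.59, SE 0.08, adjusted p = 0.00102), but this sign turned under quantile normalization (0.73, adjusted p = 0.561), array median scaling (0.03, adjusted p = 0.969) and in the submitters' table (0.16, adjusted p = 0.718). It also lost its call under normexp (-0.11, adjusted p = 0.678) and with a trended, robust spread (-0.59, adjusted p = 0.106). Array median scaling moved the median of all genes to 0.48 at 10 nM and 0.46 at 1 nM. With that scaling but without vehicle replicate 3 the 10 nM difference was -0.49 (adjusted p = 0.0536) and the 1 nM difference 0.95 (adjusted p = 0.00278). With that array the 1 nM call ended under quantile normalization (2.08, adjusted p = 0.153), and the call between the doses under quantile normalization (-1.34, adjusted p = 1.00), array median scaling (-1.44, 0.446) and in the submitters' table (-0.82, 0.343), where without it array median scaling gave -1.44 (adjusted p = 0.000801). The probe lies at chrX:153596731-153596790 on the minus strand (mm9).

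Bglap encodes osteocalcin, the vitamin K-dependent hormone and matrix protein of mature osteoblasts, and in the mouse it lies beside near copies, Bglap2 and Bglap3. Bglap read -3.04, -2.68 and -2.04 in vehicle, -2.09, -1.89 and -1.96 at 1 nM and -2.47, -2.49 and -2.67 at 10 nM. The 1 nM arrays lay above 2 of the 3 vehicle arrays, and vehicle replicate 3 lay among them, 0.82 above the other vehicle arrays where probes of like level lay a median of 0.33 above. With all arrays the difference did not pass the test at 1 nM (log2 0.60, SE 0.23, adjusted p = 0.106) or at 10 nM (0.04, adjusted p = 0.906). Without vehicle replicate 3 Bglap was 1.84-fold higher at 1 nM than in vehicle (log2 0.88, SE 0.13, adjusted p = 0.00304), 1.48-fold lower at 10 nM than at 1 nM (log2 -0.56, adjusted p = 0.0404), and 0.31 above vehicle at 10 nM (adjusted p = 0.113). With all arrays the 1 nM difference passed under normexp (0.73, adjusted p = 0.0102), quantile normalization (1.12, 0.00533), array median scaling (1.18, 0.0422) and in the submitters' table (0.82, 0.00196). The other Bglap probe, at chr3:88187792-88187851 on the minus strand (mm9), was not well above background on any array that measured it.

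Probes of the neighbouring copies spread less in vehicle, with an SD of 0.27 for Bglap2 and 0.20 for Bglap3 against 0.51 for Bglap. At 1 nM and 10 nM Bglap3 spread more than Bglap (SD 0.18 and 0.16 against 0.10 and 0.11). Bglap2 read 0.19, 0.70 and 0.27 in vehicle, 1.46, 1.58 and 1.57 at 1 nM and 0.99, 1.07 and 0.88 at 10 nM, and Bglap3 read 0.24, 0.64 and 0.37 in vehicle, 1.34, 1.59 and 1.68 at 1 nM and 0.93, 1.17 and 0.87 at 10 nM. No array of either dose overlapped vehicle. For Bglap2 the 1 nM level was 2.22-fold that of vehicle (log2 1.15, SE 0.14, adjusted p = 0.00067). The 10 nM level was 1.51-fold that of vehicle (log2 0.59, SE 0.14, adjusted p = 0.0131). For Bglap3 these were 2.18-fold (log2 1.12, adjusted p = 0.000967) and 1.49-fold (log2 0.57, adjusted p = 0.019). With array median scaling the 10 nM calls of Bglap2 and Bglap3 ended, at larger differences (1.21 and 1.19, adjusted p = 0.0863 and 0.0856). The Bglap2 call at 10 nM also ended under quantile normalization (0.74, adjusted p = 0.0531). The step between 10 nM and 1 nM, -0.56 for Bglap2 and -0.55 for Bglap3, did not pass the test (adjusted p = 0.081 and 0.0983).

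Osteocalcin probes are printed because the genes are near copies, so their signals may not be separate. The files list 1 transcript of Bglap for the Bglap probe, for the Bglap2 probe and for a Bglap3 probe that is not the one printed. In the Bglap probe (chr3:88188307-88188366, minus strand, mm9) capitals mark the start codon. In the Bglap2 probe (chr3:88181822-88181881, minus strand, mm9) and in a Bglap3 probe (chr3:88172673-88172732, minus strand, mm9) they mark a stretch of 25 bases that both share but for 2 mismatches, G37A and G51A, counted from 1 at the 5′ end of the Bglap2 probe and written with the Bglap2 base first. That Bglap3 probe differed from vehicle by log2 1.09 at 1 nM and 0.54 at 10 nM (adjusted p = 0.000718 and 0.0173), near the values of the Bglap3 probe above. A further Bglap3 probe was too dim to be kept. Its means were -5.91 in vehicle, -6.68 at 1 nM and -6.97 at 10 nM, with 2, 1 and 2 arrays well above background.
Bglap probe: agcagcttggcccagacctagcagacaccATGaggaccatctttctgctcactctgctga
Bglap2 probe: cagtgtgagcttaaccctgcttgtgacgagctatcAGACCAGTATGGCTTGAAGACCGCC
Bglap3 probe: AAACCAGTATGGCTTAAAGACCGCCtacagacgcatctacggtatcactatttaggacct

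Alpl encodes tissue-nonspecific alkaline phosphatase, which frees phosphate for mineral and is the usual first test of osteoblast conversion in these cells. Its probe, at chr4:137297658-137297716 on the minus strand (mm9), read -9.36 and -8.45 in vehicle, with no usable spot on vehicle replicate 3, -8.81, -9.28 and -8.85 at 1 nM and -6.72, -8.36 and -8.63 at 10 nM. Only 1 of the 8 arrays that measured it, that of 10 nM replicate 1, had it well above background, so Alpl was not tested and no fold is given.

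Omd encodes osteomodulin, a keratan sulfate proteoglycan of mineralised matrix from the family of small leucine-rich proteoglycans. It read -2.70, -2.47 and -2.97 in vehicle, -5.97, -6.20 and -5.98 at 1 nM and -6.22, -6.37 and -7.02 at 10 nM. Every vehicle array lay above every array of either dose, and the probe was well above background on all arrays but 10 nM replicate 3. Omd was 10.1-fold lower at 1 nM than in vehicle (log2 -3.34, SE 0.22, adjusted p = 3.03e-05) and 14.2-fold lower at 10 nM than in vehicle (log2 -3.82, SE 0.22, adjusted p = 9.56e-06). The 10 nM value lay 0.48 below that at 1 nM, with a 95% interval for the difference of -1.0 to 0.03 (adjusted p = 0.459). The call held at both doses under all 24 alternatives, with differences between -3.47 and -1.48 at 1 nM and between -3.98 and -1.56 at 10 nM. The probe lies at chr13:49687847-49687906 on the plus strand (mm9).

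**Figure D3:**
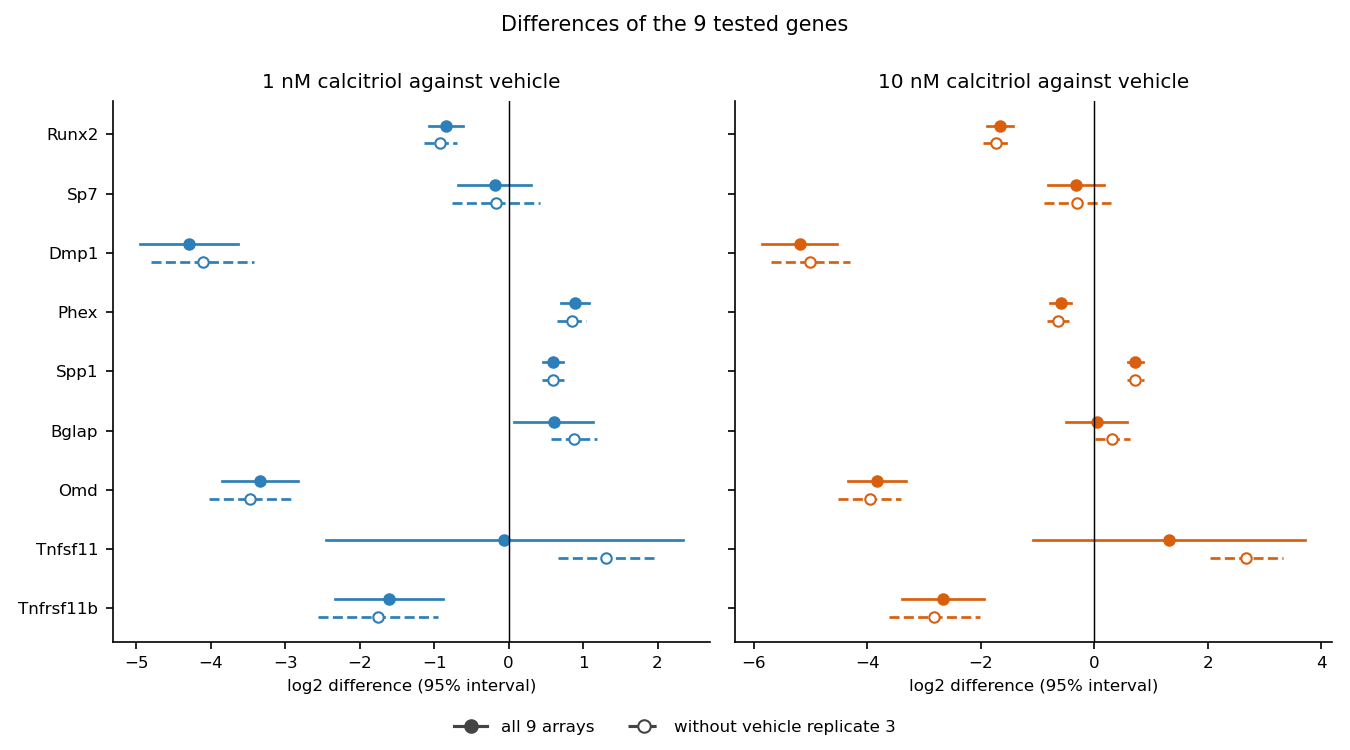
The x axis gives the log2 difference from vehicle at 1 nM (left) and at 10 nM (right) and the rows are the 9 tested genes. Filled points with solid lines are estimates with 95% intervals from all 9 arrays, and open points with broken lines are those without vehicle replicate 3. The interval of Tnfsf11 narrows and moves above 0 without that array, and the estimate of Bglap moves up.

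Tnfsf11 encodes RANK ligand, the cytokine that osteoclast precursors need and a known target of the vitamin D receptor in osteoblasts. It read -9.16, -8.31 and -4.63 in vehicle, -7.65, -7.11 and -7.51 at 1 nM and -6.20, -5.91 and -6.06 at 10 nM. The 10 nM arrays were the only group with the probe well above background on all 3, no 1 nM array reached that mark, and in vehicle only replicate 3 did. The probe was thus kept for testing through the 10 nM group alone, a filter that favours a call of higher there. With all arrays neither difference passed the test (log2 -0.06 at 1 nM, SE 1.03, adjusted p = 0.974, and 1.31 at 10 nM, SE 1.03, adjusted p = 0.361). Vehicle replicate 3 lay 4.10 above the other vehicle arrays, where the 43 kept probes of like level lay a median of 4.01 above. Without it every vehicle and 1 nM array was at background. The fitted difference between these groups passed the test (log2 1.31, adjusted p = 0.0130) but compares signals at background, so no fold is given for it. The 10 nM level was then at least 1.57-fold higher than that of vehicle (fitted log2 2.68, adjusted p = 0.000356). At 10 nM Tnfsf11 was at least 1.71-fold higher than at 1 nM, a difference that passed the test without vehicle replicate 3 (fitted log2 1.37, adjusted p = 0.0221) and not with it (adjusted p = 0.840, or 0.0103 where only the arrays of both doses were fitted). Within slide 2, where replicate 3 is the only vehicle array, the sign was the reverse (log2 -2.68 at 1 nM and -1.28 at 10 nM, adjusted p = 0.00571 and 0.0319). Within slide 1 the fitted 10 nM difference was 2.54 (adjusted p = 0.0175). With all arrays the 10 nM difference passed under quantile normalization (2.54, adjusted p = 0.00032) and in the submitters' table (0.86, 0.00924).

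Tnfrsf11b encodes osteoprotegerin, the decoy receptor that binds RANK ligand and so holds back osteoclast formation. It read -2.44, -2.33 and -2.83 in vehicle, -3.85, -4.12 and -4.45 at 1 nM and -4.52, -5.40 and -5.66 at 10 nM, and was well above background on all 9 arrays. The 3 groups did not overlap. Tnfrsf11b was 3.04-fold lower at 1 nM than in vehicle (log2 -1.61, SE 0.31, adjusted p = 0.00779) and 6.33-fold lower at 10 nM than in vehicle (log2 -2.66, SE 0.31, adjusted p = 0.000447). The difference between 10 nM and 1 nM was -1.06 on the log2 scale (adjusted p = 0.153), and it passed the test without 10 nM replicate 1 (-1.39, adjusted p = 0.0357). With vehicle replicate 3 kept, the 1 nM call ended under quantile normalization, array median scaling and in the submitters' table (-0.85, -1.03 and -0.64, adjusted p = 0.349, 0.226 and 0.321), and the 10 nM call under quantile normalization and in that table (-1.77 and -1.10, adjusted p = 0.0722 and 0.0938). The probe of Tnfrsf11b lies at chr15:54082760-54082819 and that of Tnfsf11 at chr14:78677444-78677503, both on the minus strand (mm9).

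**Figure D4:**
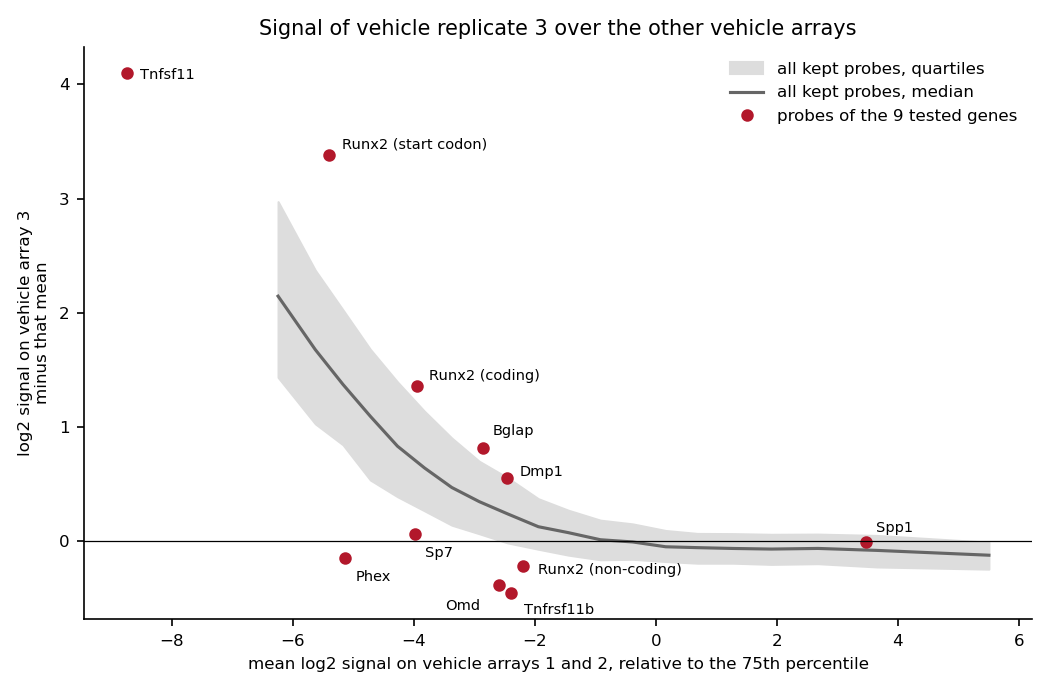
The x axis is the mean log2 signal of a probe on vehicle arrays 1 and 2, relative to the 75th percentile, and the y axis is its signal on vehicle array 3 minus that mean. The line is the median and the band the quartiles over all kept probes, and points are probes of the 9 tested genes. Tnfsf11 and the start codon probe of Runx2 lie highest, at 4.10 and 3.38, while Phex, Omd, Tnfrsf11b and the non-coding Runx2 probe lie below 0.

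Upstream sequence was examined for the genes whose windows RefSeq gives, 11 windows of 250 bases for 8 of the 10 genes (GRCm38.p6), with none used for Sp7 and Tnfrsf11b. The motif AACCACA, or TGTGGTT on the other strand, is the core that RUNX proteins are known to bind. It stood in 3 of the 11 windows, 1 each for Runx2, Dmp1 and Spp1, and in 4.40% of 32851 windows of that length over all genes. Those windows are printed because they hold the motif, shown in capitals. The windows of Omd and Phex, which also passed the test at both doses, do not hold it. They lie at chr17:44814628-44814877 on the minus strand for Runx2, with the motif at position -81 from the start site, at chr5:104202367-104202616 on the plus strand for Dmp1, with the motif at -165, and at chr5:104434861-104435110 on the plus strand for Spp1, with the motif at -129. Dmp1 and Spp1 each have a further window without it.
Runx2 window: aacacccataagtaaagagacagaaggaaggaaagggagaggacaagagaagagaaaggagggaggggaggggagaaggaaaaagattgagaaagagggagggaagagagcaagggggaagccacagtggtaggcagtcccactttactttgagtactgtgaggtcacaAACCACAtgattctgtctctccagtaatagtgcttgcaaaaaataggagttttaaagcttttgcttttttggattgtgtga
Dmp1 window: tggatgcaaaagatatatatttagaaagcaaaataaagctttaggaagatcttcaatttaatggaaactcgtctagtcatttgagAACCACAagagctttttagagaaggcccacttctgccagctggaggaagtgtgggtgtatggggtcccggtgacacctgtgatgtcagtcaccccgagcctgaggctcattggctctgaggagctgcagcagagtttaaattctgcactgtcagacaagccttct
Spp1 window: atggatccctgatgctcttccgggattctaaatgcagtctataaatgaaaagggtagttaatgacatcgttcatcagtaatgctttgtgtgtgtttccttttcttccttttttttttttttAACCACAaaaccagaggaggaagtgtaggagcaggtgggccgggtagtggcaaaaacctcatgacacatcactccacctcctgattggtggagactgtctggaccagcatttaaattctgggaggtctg

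In all 14 motifs were searched on both strands, and a match describes letters and not a bound site. TGTGGT, which lies within TGTGGTT, matched 4 of the 11 windows (14.0% of all windows), AGGTCA 3 (14.0%), GGGTCA 3 (11.6%) and TATAAA 4 (12.4%). CACCTG matched 3 of the 11 (17.2%), CAGCTG 3 (13%), CACGTG 1 (6.02%) and CCAAT 5 (33.8%). The direct repeat of AGGTCA with any 3 bases between, which the vitamin D receptor with its partner is known to bind, matched 0 of the 11 windows and 0.00609% of all windows. GGTTCA (8.85%), ATAAATA (5.17%), TGACGTCA (1.55%) and TGAGTCA (4.46%) also had no match.

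Omd lies in a run of 4 leucine-rich repeat genes on chromosome 13, in the order Ecm2, Aspn, Omd and Ogn, and all 4 were lower at both doses. Aspn, which encodes asporin, was at least 29.3-fold lower at 1 nM and at least 27.5-fold lower at 10 nM than in vehicle (adjusted p = 1.07e-05 and 5.44e-06), being well above background on all vehicle arrays and on no array of either dose. Aspn was thus kept for testing through vehicle alone. Ogn, which encodes osteoglycin, differed by log2 -1.93 and -1.65 (adjusted p = 6.32e-06 and 9.19e-06), and Ecm2, an extracellular matrix protein, by -0.89 and -1.12 (adjusted p = 0.00557 and 0.00132). The Ecm2 calls ended under quantile normalization (-0.25 and -0.43, adjusted p = 0.559 and 0.318), array median scaling (-0.32 and -0.51, adjusted p = 0.518 and 0.288) and in the submitters' table (-0.24 and -0.32, adjusted p = 0.385 and 0.246), and the Ogn calls under array median scaling (-1.35 and -1.04, adjusted p = 0.0721 and 0.125). On chromosome 5 Dmp1 and Spp1 lie in a run of genes for acidic matrix proteins, Dspp, Dmp1, Ibsp, Mepe and Spp1. Between Dmp1, which was lower, and Spp1, which was higher, neither Ibsp, bone sialoprotein (log2 -1.08 and -1.20, adjusted p = 0.204 and 0.135), nor Mepe, a matrix phosphoglycoprotein (-0.28 and -0.30, adjusted p = 0.390 and 0.321), passed the test, and Dspp did not pass the filter on dim probes.

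**Figure D5:**
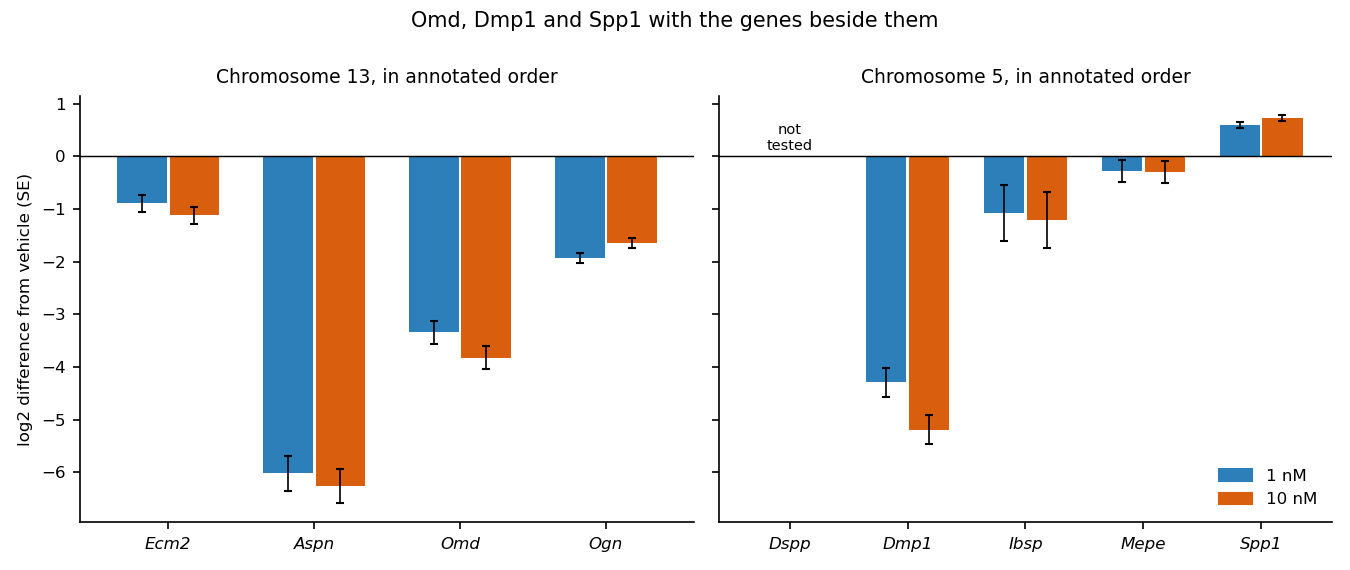
Bars give the fitted log2 difference from vehicle at 1 nM and 10 nM for the runs of genes on chromosome 13 and chromosome 5, in annotated order, with error bars of 1 SE. All 4 genes on chromosome 13 lie below 0, while on chromosome 5 Dmp1 lies below 0 and Spp1 above it. Aspn at both doses and Dmp1 at 10 nM were at background, so their bars depend on signal near the floor.

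Other genes of bone matrix and mineral were counted from lists, beside the share of all genes that passed (23.6% at 1 nM and 30.1% at 10 nM). Of the small leucine-rich proteoglycans, 11 of 13 listed genes were measured, and 2 were higher and 7 lower at 1 nM and 1 higher and 7 lower at 10 nM, with medians of -1.20 and -1.52 on the log2 scale. Under quantile normalization 1 was higher and 4 lower at 1 nM and 1 higher and 5 lower at 10 nM (medians -0.50 and -1.02), and under array median scaling 2 were higher and 3 lower and 1 higher and 4 lower (medians -0.63 and -0.91). Fmod, fibromodulin of collagen fibrils, differed by -3.39 and -3.72 (adjusted p = 2.54e-06 and 1.10e-06), and Podn, podocan, by -1.54 and -2.31 (adjusted p = 0.000253 and 1.90e-05). The Podn calls ended under quantile normalization (-0.50 and -1.12, adjusted p = 0.612 and 0.265) and in the submitters' table (-0.39 and -0.70, adjusted p = 0.459 and 0.188). At 1 nM its call also ended with array median scaling (-0.96, adjusted p = 0.192). Dcn, decorin, went the other way, by 1.45 and 1.16 (adjusted p = 0.000113 and 0.000269). Lum, lumican, differed by 0.70 at 1 nM (adjusted p = 0.00933, or 0.0794 under quantile normalization) and by 0.18 at 10 nM (adjusted p = 0.352). Of osteoblast and osteocyte matrix and surface genes, 14 of 17 were measured, with 5 higher and 5 lower at 1 nM and 4 higher and 5 lower at 10 nM. Their median was -0.05 at 1 nM and -0.42 at 10 nM, and under quantile normalization it was 0.43 and 0.19. Postn, periostin of collagen-rich tissue, differed by -1.79 and -4.35, Ptn, the growth factor pleiotrophin, by -3.58 and -6.02, and Tnc, tenascin C, by -2.95 and -3.51 (adjusted p of at most 6.57e-05), and the 1 nM call of Postn ended with array median scaling (-1.21, adjusted p = 0.15). Col1a1, the main collagen chain of bone, differed by -1.35 and -1.13 (adjusted p = 2.13e-05 and 3.44e-05), calls that ended with array median scaling (-0.77 and -0.52, adjusted p = 0.245 and 0.320). The genes of this list that were higher included Bglap2 and Bglap3, given above, and Pdpn, by 0.71 and 0.62 (adjusted p = 0.000153 and 0.00022). The Pdpn calls ended with array median scaling (1.28 and 1.24, adjusted p = 0.0788 and 0.0645).

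Of genes that handle phosphate and mineral inhibitors, 13 of 15 were measured, 4 higher and 2 lower at 1 nM and 5 higher and 2 lower at 10 nM. Enpp1, which makes the mineralisation inhibitor pyrophosphate, stood at 3.81-fold its vehicle level at 1 nM and 3.13-fold at 10 nM (adjusted p = 1.75e-05 and 2.68e-05). Mgp, matrix Gla protein, an inhibitor of calcification, differed by log2 1.54 and 1.44, and Slc20a2, a sodium-phosphate cotransporter, by 0.52 and 0.80. Slc20a1, a further such cotransporter, went the other way, by -1.21 and -1.25 (adjusted p = 0.000846 and 0.000888). Its calls ended with array median scaling (-0.63 and -0.64, adjusted p = 0.305 and 0.299). Nt5e, the surface enzyme that makes adenosine from AMP, was 4.97-fold lower at 1 nM and 12.9-fold lower at 10 nM than in vehicle (adjusted p = 2.20e-05 and 1.27e-06).

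Of transcription factors of the osteoblast lineage beside Runx2 and Sp7, 16 of 17 were measured, 3 higher and 1 lower at each dose. Foxc1, a forkhead factor of skeletal precursors, differed by 1.41 and 1.52 and Foxc2 by 0.64 and 1.06, while Mef2c differed by 0.52 at 1 nM (adjusted p = 0.0280, or 0.0534 without vehicle replicate 3) and 0.29 at 10 nM (adjusted p = 0.155). Twist2, known to restrain Runx2, differed by -0.34 and -0.65 (adjusted p = 0.00825 and 0.000205). Both calls ended under normexp (-0.14 and -0.44, adjusted p = 0.582 and 0.0546), quantile normalization (0.003 and -0.31, 0.993 and 0.320) and array median scaling (0.24 and -0.04, 0.671 and 0.949). Under the last 2 of these the sign at 1 nM turned. The 1 nM call also ended in the submitters' table (-0.22, adjusted p = 0.0827). Of bone morphogenetic protein ligands, receptors and inhibitors, 11 of 15 were measured, 4 higher and 1 lower at 1 nM and 3 higher and 2 lower at 10 nM. The receptor gene Bmpr1b differed by -2.02 and -2.79, and the ligand genes Bmp4 by 1.27 and 0.90 and Gdf5 by 1.14 and 1.44. Chrd, chordin, an inhibitor of these ligands, differed by 1.04 and 1.31 (each with adjusted p of at most 0.00332).

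Of genes of the RANK ligand axis beside Tnfsf11 and Tnfrsf11b, 7 of 8 were measured, 1 higher and 2 lower at 1 nM and 1 higher and 3 lower at 10 nM. Csf1, the growth factor of osteoclast precursors, differed by 1.03 and 0.52 (adjusted p = 6.45e-05 and 0.00171). Tnfrsf10b, a receptor for the related ligand TRAIL, differed by -0.46 and -0.42 (adjusted p = 0.00106 and 0.00116), with the sign turned under array median scaling (0.12 and 0.19), and Lgr4, a further RANK ligand receptor, by -0.73 and -0.82 (adjusted p = 0.0374 and 0.0194), with the sign turned under quantile normalization (0.13 and 0.11) and, at 10 nM, in the submitters' table (0.05). The Lgr4 calls also ended under normexp (-0.40 and -0.37, adjusted p = 0.0514 and 0.0587). Vwf, von Willebrand factor, differed by -0.98 at 10 nM (adjusted p = 0.0242) and -0.67 at 1 nM (adjusted p = 0.108), and its 10 nM call ended under quantile normalization (-0.14, adjusted p = 0.774), array median scaling (-0.37, 0.429) and in the submitters' table (-0.14, 0.634).

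Markers of other cell types were read beside these genes, and their part in the results above was not tested. Of 10 osteoclast genes, 7 were tested, 1 higher and 2 lower at each dose, and the summed signal over the 10, in multiples of the 75th percentile, was 2.73 to 3.30 in vehicle, 1.16 to 1.25 at 1 nM and 1.02 to 1.24 at 10 nM. From 6 to 10 of them were well above background on vehicle arrays and 7 on each array of either dose, Acp5, Ctsk, Oscar and Ocstamp among them. Calcr, Dcstamp and Mmp9 were at background on all arrays of both doses. Itgb3, an integrin that other cells also use, differed by -3.27 and -4.64, Acp5 by 0.43 and 0.88, and Nfatc1 by -0.51 and -0.52 with the sign turned under array median scaling (0.07 and 0.10). The Acp5 call at 1 nM ended under quantile normalization (1.09, adjusted p = 0.172), array median scaling (1.00, 0.187) and in the submitters' table (0.85, 0.0845). At 10 nM its call ended under quantile normalization (1.52, adjusted p = 0.0605). Of 12 chondrocyte genes, 9 were tested, none higher and 3 and 4 lower, with a summed signal of 10.1 to 12, 11.6 to 14.6 and 11.1 to 13.3 in vehicle, 1 nM and 10 nM. Sox6, Col2a1 and Matn1 were at background on all arrays of both doses. Col11a1 differed by -3.20 at 1 nM and was at least 7.33-fold lower at 10 nM than in vehicle, and was kept for testing through vehicle alone. Sox9 differed by -0.51 at 1 nM and -0.17 at 10 nM (adjusted p = 0.00201 and 0.134), with the sign at 1 nM turned under array median scaling (0.07), and Matn3 by -1.09 and -1.43 (adjusted p = 0.0499 and 0.0133), or -0.65 and -1.0 without vehicle replicate 3. The Matn3 calls ended under quantile normalization (-0.05 and -0.27, adjusted p = 0.936 and 0.621), array median scaling (-0.51 and -0.82, 0.285 and 0.0955) and in the submitters' table (-0.06 and -0.14, 0.829 and 0.575), and at 1 nM under normexp (-0.42, 0.0765). Col10a1 differed by -0.93 at 10 nM (adjusted p = 0.00552) and -0.10 at 1 nM (adjusted p = 0.705), and its 10 nM call ended under quantile normalization (-0.26, adjusted p = 0.478), array median scaling (-0.32, 0.478) and in the submitters' table (-0.33, 0.109). Under quantile normalization 0 and 1 of these genes were lower, and under array median scaling 1 and 1.

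All 12 myotube markers were tested, 7 higher and none lower at 1 nM and 9 higher and 1 lower at 10 nM, and their summed signal was 498 to 575 in vehicle, 652 to 699 at 1 nM and 717 to 730 at 10 nM. Under array median scaling 2 were higher at 1 nM and 3 at 10 nM, and 3 and 7 with that scaling without vehicle replicate 3. Myh2, a fast myosin, differed by 1.89 and 2.20, Myh7, the slow one, by 1.31 and 1.42, and Myh1 by 0.71 and 0.90. Myog differed by -0.13 (adjusted p = 0.226) and -0.43 (adjusted p = 0.00287), with the sign at 10 nM turned under array median scaling (0.19). Of 5 myoblast genes 4 were tested, 1 higher and 3 lower at each dose, among them the proliferation gene Mki67 with -4.48 and -5.47, Cd34 with -3.36 and -3.99, Myod1 with 0.66 and 0.89, and Pax7 with -0.57 and -0.91, where array median scaling turned the sign at 1 nM (0.01). Of 6 adipocyte genes 1 was higher at 1 nM and 2 at 10 nM, and without vehicle replicate 3 these were 2 and 3. Fabp4, which passed at both doses, read -8.43 to -3.82 in vehicle, 0.04 to 0.19 at 1 nM and 0.62 to 0.83 at 10 nM, and Adipoq, which passed at 10 nM, read -8.93 to -2.80, -2.66 to -2.42 and 0.99 to 1.13. Each was well above background on 1 of 3 vehicle arrays, so no fold is given. Both were thus kept for testing through the calcitriol groups alone, a filter that favours a call of higher there. The 6 genes' summed signal was 0.56 to 1.37 in vehicle, 1.78 to 1.90 at 1 nM and 4.36 to 4.76 at 10 nM. Of 5 macrophage genes limma called 0 at either dose, with 1 at an unadjusted p under 0.05 at each. Without vehicle replicate 3 it called 1 higher at each dose, Cd68 (0.75 and 0.80, adjusted p = 0.00307 and 0.00160), and under quantile normalization 1 higher at each. Their summed signal was 20.8 to 25.2, 17.8 to 19.2 and 16.1 to 21.3. Itgam differed by -0.30 and -0.33 and Ptprc by -0.66 and -0.95. Of 3 endothelial genes tested, 1 was higher at both doses, Tek, by 2.73 and 2.78. Tek was well above background on 1 of 3 vehicle arrays, so it too was kept through calcitriol arrays alone. Its calls ended in the submitters' table (0.76 and 0.81, adjusted p = 0.275 and 0.228). The summed signal of the 4 listed was 3.56 to 5.93, 3.82 to 5.21 and 4.55 to 6.26. As a check of the treatment, Cyp24a1, which breaks down calcitriol, differed by 1.29 and 6.13, and Vdr, its receptor, by 0.10 (adjusted p = 0.356) and 1.61.

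For each gene that passed the test at either dose, the 3 genes with the highest Pearson correlation were taken from 14791 other protein-coding genes with a value on all 9 arrays, over those arrays, which fall into 3 groups. They are a description of shared pattern over arrays that share a scaling. For Dmp1 they were Kif2c, Ercc6l and Kif11, which encode proteins of the mitotic spindle and chromosomes (r from 0.996 to 0.997), and 943 genes had r over 0.95. For Omd they were Hr, Gas2l3 and Lrrc8c (r = 0.996 for each, 868 genes over 0.95). For Spp1 they were Tmem86a, F11r and Lpin3 (r = 0.998 for each, 819 genes over 0.95), and for Runx2 Cst6, Tns3 and Egr2 (r from 0.994 to 0.997, 315 genes). For Tnfrsf11b they were Adgrl3, Mcpt4 and Cacna2d2 (r = 0.982 for each, 123 genes). For Phex, the gene highest at 1 nM, they were Slc43a1, Plxdc1 and Ptger4 (r from 0.970 to 0.978), and only 14 genes had r over 0.95.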

How the data were processed

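Scanner files of 9 arrays were used. Their processed signal columns hold linear intensity, background-corrected per the file headers, with marks for control, non-uniform and well-above-background spots. The submitters' processing notes name limma and, for the scans, Feature Extraction 11.5.1.1. The submitters also deposited a table of log2 values for 30094 probes with column medians of 9.65 to 9.73. Its columns correlated at 0.998 to 1.000 with normexp-corrected (offset 50), quantile-normalized values made here, so its genes were not centred, and it served as an alternative. Probe coordinates are those of mm9, which 8 of the 9 file headers name.

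Control and non-uniform spots were left out, log2 signals were scaled by the array's 75th percentile, and spots of a probe were averaged. Kept probes numbered 28339 (71.9%), and a gene was its kept probe with the highest mean. Names came from RefSeq by accession or symbol, as did the promoter windows. Groups were compared by limma 3.58.1 (lmFit and eBayes, R 4.3.3) in 1 fit of all 9 arrays, two-sided, with Benjamini-Hochberg adjustment over 21992 genes and a threshold of 0.05. An "at least" fold sets the brighter mean against, per dim array, the higher of the probe's signal and the lowest signal of a probe well above background.

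The 10 genes, the 14 lists and the tests were chosen with earlier results of these data known. Named list genes were the called ones with the smallest p, up to 4 per list, or 2 where none was called. Slc20a1, Pdpn, Dcn and Lum were named beyond that rule, as they went the other way from genes named beside them. The labels and the series' design text call the replicates biological, and no source says more of the cultures. Deviations of same-numbered arrays correlated at 0.484, 0.329 and 0.144 between the doses and at -0.420 to 0.053 with vehicle. Arrays were not paired by number in the main fit, for any comparison. A fit with the replicate number as a block over all groups was an alternative. Vehicle replicates 1 and 2 lay on slide 1 with replicate 1 of either dose, slide 2 held vehicle replicate 3, 2 arrays of 1 nM and 1 of 10 nM, and slide 3 held 10 nM replicate 3 alone. Within a slide, a lone array was assumed to vary like the others. The procedure was tested on simulated data with known changes. Alternatives covered background correction, scaling, probe filter and choice, spread model, blocks, slides, left-out arrays and thresholds.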

Additional observations from a re-analysis of the deposited data

How the results depend on the processing

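Of 678 recomputed gene differences, 578 kept direction and side of the threshold, 43 lost a call, 29 gained one and 28 changed sign. For 1 nM, members called were 3 with a 2-fold minimum in place of 6, from 6 to 8 with an array left out, 4 with array median scaling, within slide 1 or with only probes well above background on all 9 arrays, 5 with quantile normalization, the submitters' table or the mean of a gene's probes, 7 within slide 2 and 8 with array weights. At 10 nM they were 6 or 7 with an array left out, 4 with quantile normalization, array median scaling, the submitters' table, a 2-fold minimum or only probes above background on all 9 arrays, 5 with normexp, with a trended, robust spread or within slide 1, and 8 with array weights or within slide 2. Between the doses they were 2, and 1 with normexp correction, with the mean of a gene's probes or with a 2-fold minimum, 0 by limma with quantile normalization, array median scaling, the submitters' table, within slide 1 and within slide 2 (2, 4, 3, 5 and 5 at an unadjusted p under 0.05), and 4 with array weights or only the 2 groups compared. With an array left out they were 2 to 4, and 4 without vehicle replicate 3 combined with array median scaling, quantile normalization or each probe on its own, combinations chosen after seeing the data. The replicate block left 6, 6 and 2 members called and changed no call of a member.

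Signs changed as follows. Sp7 at 1 nM was 0.075 with normexp, 0.86 with quantile normalization, 0.39 with array median scaling and 0.41 in the submitters' table. Sp7 at 10 nM was 0.80, 0.29 and 0.39 under the last 3 and 0.085 within slide 1, and between the doses 0.10 with a slide block, 0.12 within slide 1, 0.061 within slide 2 and from -0.33 to 0.12 with an array left out, highest without 10 nM replicate 3. Tnfsf11 at 1 nM, where the probe was at background on all 1 nM arrays and on vehicle replicates 1 and 2, was 1.19 with quantile normalization, 0.52 with array median scaling, 0.13 in the submitters' table, 1.67 with array weights, 1.08 within slide 1, from -0.96 to 1.31 with an array left out (0.055 without 1 nM replicate 1 and 1.31 without vehicle replicate 3), and 1.41 and 1.35 without it under array median scaling and quantile normalization. At 10 nM Tnfsf11 was -1.28 within slide 2, and Bglap was -0.45 within slide 2 and from -0.19 to 0.31 with an array left out (-0.19 without vehicle replicate 1, -0.0063 without vehicle replicate 2). Phex at 10 nM was 0.73, 0.025 and 0.16 under quantile normalization, array median scaling and in the submitters' table.

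Calls over all genes fell to 1174 (1 nM), 1986 (10 nM) and 30 (between doses) under array median scaling, against 5188, 6624 and 837, and their share higher was 61.3%, 66.9% and 76.7% against 49.9%, 51.2% and 41.9%. For quantile normalization they were 2798, 3981 and 122. Other counts that moved by over 1.5 times were 3191 and 258 with normexp (1 nM and between doses), 11519, 10468 and 1887 with array weights, 1584, 2575 and 5 within slide 1, 10445, 10016 and 0 within slide 2, 423 between the doses in the submitters' table, 1351 with only the 2 groups compared, 535 without the probe filter and 355 with a slide block and 459 with the replicate block. With an array left out they were 366 (1 nM replicate 3) to 1267 (vehicle replicate 3) between the doses, and without vehicle replicate 3 under array median scaling 3411, 5198 and 542. The causes were not tested. Dim probes limit Alpl, Tnfsf11 and, on 5 of the 6 calcitriol arrays, Dmp1 to background or bounds.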
